A study of Mus musculus with 30 samples.

Results

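The genes described here are the homeobox, Pax and T-box transcription factors of mouse embryonic stem cells, without the Hox genes. They were taken by symbol from the deposited count tables, as the protein-coding genes named Lhx, Pax, Dlx, Irx, Msx, Emx, Hand, Tbx or Nkx with a number and those of the Six4 family, and Tbx3 was left out. The rule found 68 of 55401 annotated genes, of which 21897 were protein-coding. They fell into 14 Nkx, 12 Tbx, 9 Pax, 8 Lhx, 6 Dlx, 6 Irx, 6 sine oculis (Six4 and its relatives), 3 Msx, 2 Emx and 2 Hand genes. Hand factors are basic helix-loop-helix proteins and not homeobox proteins, and T-box factors bind DNA through a domain of their own. The rule used the symbols and no measured value, but it was set with earlier results of these data known.

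Homeobox, Pax and T-box factors bind DNA in a sequence-specific way and lay out the regions and organs of the embryo. In embryonic stem cells most of these genes are silent or expressed at trace levels, and their promoters are typical bivalent promoters that carry an activating and a repressive histone mark together and much H2A.Z. SRCAP is the catalytic subunit of a remodelling complex that exchanges H2A for H2A.Z in nucleosomes. The question asked of these genes was whether their nuclear RNA changed once SRCAP was degraded.

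Nuclear RNA-seq had been made of CGR8 mouse embryonic stem cells grown in serum with LIF, in 15 conditions of 2 libraries each, spread over 4 count tables. SYAT cells were CGR8 cells of 1 homozygous clone in which both Srcap alleles carried a YPet and auxin-inducible degron (AID) tag, and they expressed the receptor OsTir1, so that IAA (indole-3-acetic acid, an auxin) led to degradation of the SRCAP protein. Their controls were kept in auxinole, an inhibitor of the receptor. SYAT cells were collected after 2, 4, 6 or 8 h of IAA or as controls (10 libraries). Untagged parental CGR8 cells were either treated for 4 h or left untreated (4 libraries). SYAT cells with a cell cycle marker were sorted from early G1 (EG1) or late G1 (LG1), each as controls or 1 h into IAA treatment (8 libraries). SYAT cells with doxycycline-inducible mCherry fusions of wild-type SRCAP (wtSRCAP) or catalytically dead SRCAP (cdSRCAP), 1 clone of each, were induced, sorted for mCherry and collected as controls or 4 h into IAA treatment (8 libraries), and all of them carried the tagged endogenous Srcap as well. The clone and the SRCAP version cannot be told apart in that table. Degradation acts on the protein, so the Srcap RNA is no check of the labels.

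Each gene had an exon count and an intron count per library, and exon counts are given first. Exon columns summed to 17540823 to 22873893 counts per library in the SYAT time course, 45617992 to 60214521 in CGR8 cells, 19740778 to 26672402 in EG1 and LG1 and 12236493 to 26369773 in wtSRCAP and cdSRCAP cells. Levels are normalized counts, which are counts divided by the effective library size and rescaled to the size of a typical library of the same table, and they were compared within a table only. Intron columns did not hold the same thing in all tables. Of 459 single-exon coding genes with at least 100 exon counts in the SYAT time course, 229 had an intron count within 5% of the exon count and 141 had an intron count of 0, whereas in CGR8 cells and in wtSRCAP and cdSRCAP cells every such gene (432 and 420) had an intron count of 0. In EG1 this held for 211 and 140 of 447 genes, and in LG1 for 0 and 418 of 419. The intron columns of the SYAT time course and EG1 thus held exon reads, and they were not an independent readout there. For Irx3 and Msx1 the SYAT intron count was 0, and for Six4 it was 23933 beside 23525 exon counts.

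Most members were at low levels. In the SYAT time course 47 of 68 members passed the filter on low counts, and the other 21 had at most 72 exon counts in the sum of all 10 libraries, with Pax4 at 0. These 21 were Dlx1, Dlx4, Emx1, Emx2, Hand2, Lhx3, Lhx4, Lhx8, Msx3, Nkx1-1, Nkx2-1, Nkx2-6, Nkx3-2, Pax3, Pax4, Pax5, Pax9, Tbx5, Tbx10, Tbx19 and Tbx22. Elsewhere 44 members passed in CGR8 cells, 48 in EG1 and LG1 and 30 in wtSRCAP and cdSRCAP cells. CPM values are exon counts divided by the effective library size, not by the library total, and rescaled to a size common to all libraries. Six4 was the highest, at 10.4 CPM per kb of exon in the mean of the SYAT libraries. Nkx2-9 (7.79), Msx1 (5.65) and Nkx6-2 (4.16) were among the highest as well. Tbx20 (1.78), Irx2 (1.37), Irx3 (1.11), Six5 (1.10), Dlx3 (1.04) and Pax6 (1.01) were lower. Six4 and Nkx2-9 were also the highest pair in CPM per kb in the 3 other tables.

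The regions before the starts of these genes are shown because the study is about promoters. For 50 members a RefSeq window (GRCm38.p6) was at hand, and the 250 bases before the start held 1 to 33 CpG, with a median of 15 against 6 over all 32851 windows. The letters TATAAA, searched on both strands, were in 4 of 50 windows (8%) and in 4063 of all (12.4%). The windows of Tbx20, Pax6 and Nkx6-2, which the results turn on, are printed, and each had a RefSeq start within 10 bases of the annotated one. The bases before it are given 5′ to 3′ on the strand of the gene, with every CpG in capitals.
Tbx20 (chr9:24774304-24774553, minus strand): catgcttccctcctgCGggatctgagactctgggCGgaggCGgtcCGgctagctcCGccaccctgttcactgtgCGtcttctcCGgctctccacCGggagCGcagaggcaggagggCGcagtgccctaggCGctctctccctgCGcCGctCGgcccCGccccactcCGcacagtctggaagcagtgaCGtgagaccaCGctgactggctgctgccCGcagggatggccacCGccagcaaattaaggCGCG
Pax6 (chr2:105668646-105668895, plus strand): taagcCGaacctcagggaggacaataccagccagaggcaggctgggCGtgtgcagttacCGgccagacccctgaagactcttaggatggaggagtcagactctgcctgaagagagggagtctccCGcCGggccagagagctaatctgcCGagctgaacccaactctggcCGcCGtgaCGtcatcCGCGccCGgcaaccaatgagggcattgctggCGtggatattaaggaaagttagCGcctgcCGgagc
Nkx6-2 (chr7:139582798-139583047, minus strand): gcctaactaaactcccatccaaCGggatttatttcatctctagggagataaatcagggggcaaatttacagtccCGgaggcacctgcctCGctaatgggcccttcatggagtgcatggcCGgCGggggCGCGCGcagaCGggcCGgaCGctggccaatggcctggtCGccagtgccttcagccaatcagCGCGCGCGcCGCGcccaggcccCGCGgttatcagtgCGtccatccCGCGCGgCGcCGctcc
They hold 22 CpG (Tbx20), 15 CpG (Pax6) and 26 CpG (Nkx6-2), and none holds TATAAA.

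Upon SRCAP degradation in SYAT cells the summed level of the family was higher at all times. Without Six4, which alone held 84.2 to 102 CPM in the controls, the exon counts of the other 67 members summed to 106.2 and 105.1 CPM in the 2 control libraries. The sums were 148.2 and 156.9 after 2 h of IAA, 167.0 and 155.5 at 4 h, 170.4 and 176.0 at 6 h, and 174.4 and 152.2 at 8 h. All 8 treated libraries were above both controls, and the mean ratios to control were 1.44, 1.53, 1.64 and 1.55. With Six4 the ratios were 1.41, 1.42, 1.39 and 1.42. No filter on low counts enters these sums, and they carry no test. In bulk libraries, fewer cells expressing a gene and less RNA per cell cannot be told apart. The 2 libraries of a group were biological duplicates, and by the study's account replicate cells were grown and treated separately.

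**Figure D1:**
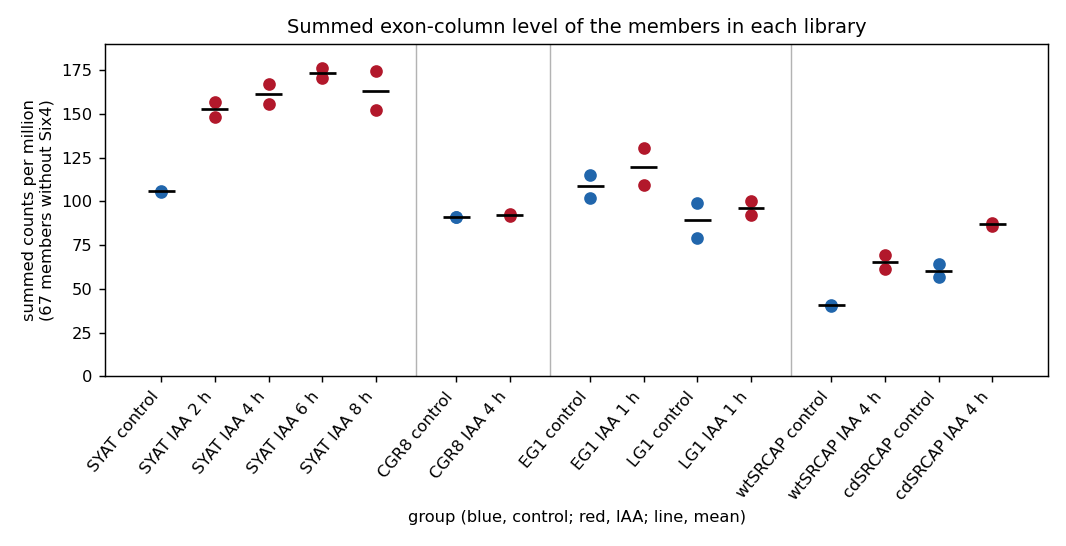
Summed exon CPM of the 67 members without Six4 (y axis) in each library of every group (x axis), with control libraries in blue, libraries with IAA in red and the group mean as a line. SYAT libraries with IAA lie between 148.2 and 176.0 and their controls at 106.2 and 105.1, CGR8 libraries lie together, and wtSRCAP and cdSRCAP libraries with IAA lie above their own controls.

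No single member passed both thresholds in the SYAT exon counts by edgeR's quasi-likelihood test (a log2 fold change over 0.5 and an adjusted p under 0.05), and nearly no gene of any kind did. This fit had no replicate block. With a block some members and more genes passed, as given at the end under processing. Over the 19205 genes tested, the share past both thresholds without a block was 0% after 2 and 4 h, 0.0677% at 6 h and 0.00521% at 8 h. At an unadjusted p under 0.05, 9 members were higher at 2 h, where 1.37% of all genes were, 9 at 4 h (3.09% of all genes), 10 at 6 h (7.93%) and 12 at 8 h (5.13%), each of 47. No member was lower at that p at any time, where 2.55%, 6%, 8.21% and 8.44% of all genes were. A member that passed the filter only through its treated libraries had to be higher, so these counts are not support for a shift. The count of members depended on single libraries. It was lower at 2 h without either IAA 2 h library. At 4 h it was lower without control replicate 1 or either IAA 4 h library, and at 8 h without control replicate 1 or IAA 8 h replicate 1. Those fits leave 1 library in a group, and their counts were not compared with the shares of all genes.

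The middle of the family stood above 0 at each time. The median log2 fold change over the 47 members was 0.56, 0.53, 0.67 and 0.57 at 2, 4, 6 and 8 h, where the median of all genes was 0.00, 0.02, 0.01 and 0.03, and 39, 41, 40 and 41 members were above 0. A member that passed the filter only through its treated libraries had to be higher, so these values describe the 47 and are not support for a shift. Over the 27 members that would pass in the controls alone, the medians were 0.49, 0.44, 0.67 and 0.57. Over the 3630 coding genes of like level (10 to 100 mean normalized counts) they were -0.08, -0.10, -0.09 and -0.10, against 0.53, 0.46, 0.78 and 0.57 for the 30 members in that window. The median over all tested members was 0.23 at 2 h without control replicate 2, and 0.38 at 8 h without IAA 8 h replicate 1.

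Libraries with IAA lay apart from the controls for many members. Both treated libraries were above both controls for 26, 22, 29 and 26 of 47 members at 2, 4, 6 and 8 h, where this held for 18.6%, 21.7%, 21.5% and 20.9% of all genes. All 8 treated libraries were above both controls for 11 members, among them Dlx2, Dlx3, Irx3, Irx4, Irx6, Lhx1, Nkx2-9, Nkx6-2, Pax6 and Six2, and for 5.97% of all genes. These times share the same 2 control libraries, so they are not independent of each other. The filter limit given for the medians holds here too, so these counts describe the 47 and are not support for a shift.

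**Figure D2:**
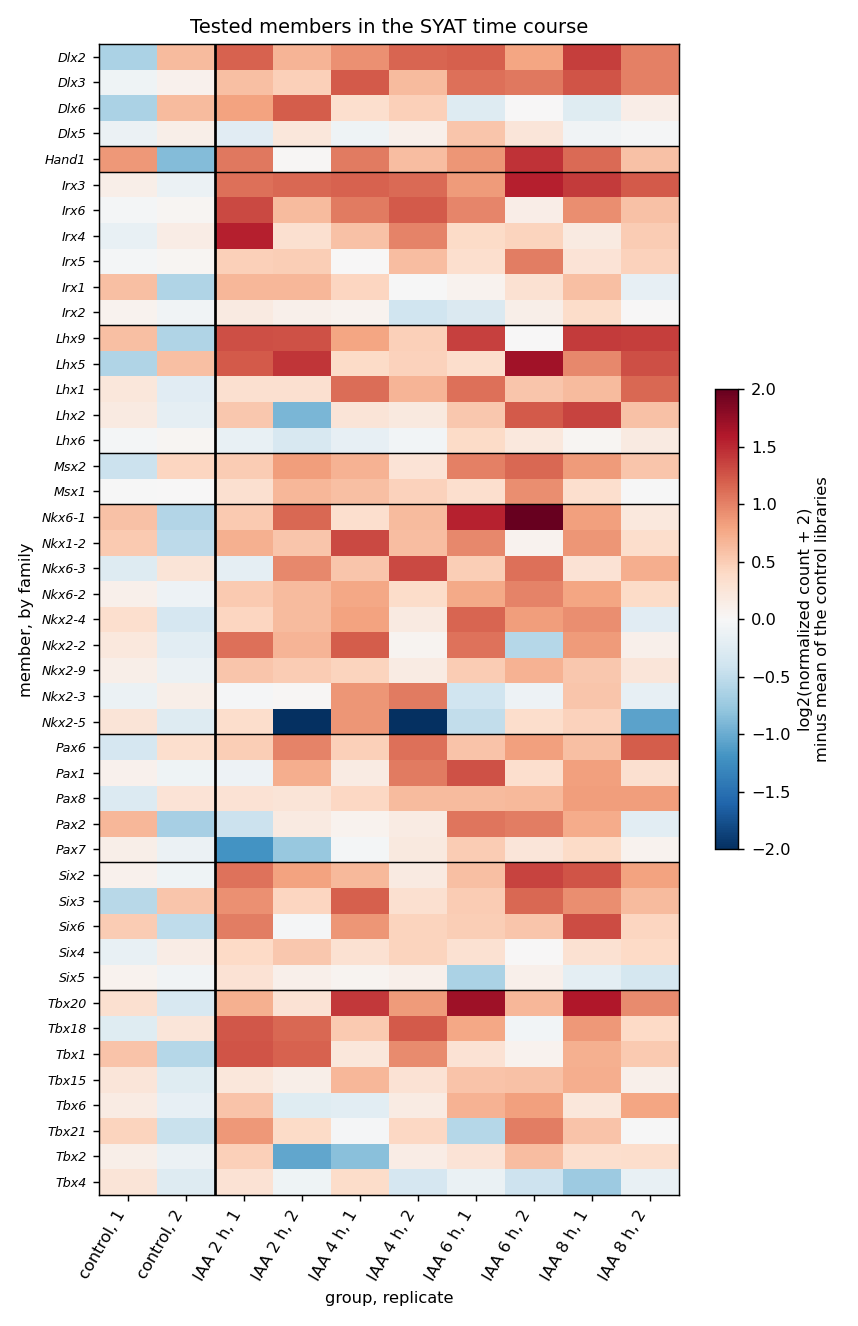
Tested members (rows, by family) in each SYAT library (columns), as log2(normalized count + 2) minus the mean of the control libraries, with red above and blue below and the scale ending at -2 and 2. In each of the 8 columns with IAA more members are red than blue.

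Six4 and its relatives, the sine oculis homologs of muscle, kidney and sensory organ progenitors, included the most strongly expressed member. Six4 (ENSMUSG00000034460.9, chr12:73099609-73113456 in GRCm38, as are all positions given) had 1720 and 2094 in the controls, 2508 and 2758 at 2 h, 2352 and 2589 at 4 h, 2336 and 1917 at 6 h, and 2346 and 2491 at 8 h. Its groups overlapped at 6 h only, and its log2 fold changes were small (0.47, 0.37, 0.16 and 0.34, SE 0.15 each). Six2, a factor of nephron progenitors, had 13.4 and 11.8 normalized counts in the controls and 14.6 to 35.1 after IAA. Six5 had 72.4 and 65.8 in the controls and 43.9 to 84.7 after IAA, on either side of the controls.

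Of the Irx genes, which pattern the neural tube, heart and limbs, Irx3 had the smallest p. Irx3 (ENSMUSG00000031734.13, chr8:91798525-91802067) had 32.1 and 27.0 normalized counts in the controls, 65.7 and 68.0 at 2 h, 69.4 and 66.8 at 4 h, 54.5 and 90.3 at 6 h, and 81.0 and 71.4 at 8 h. The groups did not overlap at any time. Its log2 fold changes were 1.18, 1.20, 1.29 and 1.37 (SE 0.32 each), with unadjusted p of 0.0041, 0.0036, 0.0024 and 0.0015 and edgeR adjusted p of 0.90, 0.25, 0.11 and 0.11. The antisense gene Irx3os overlaps Irx3, and the strand setting of the counting is not given in the sources used here. Irx2, at a higher level per kb than Irx3, had 85.2 and 95.2 in the controls and 67.7 to 117 after IAA, with log2 fold changes of 0.14, -0.16, -0.07 and 0.20.

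Of the T-box genes, Tbx20, which is required in the heart, had the highest level per kb. Tbx20 (ENSMUSG00000031965.15, chr9:24718138-24774303) had 282 and 182 normalized counts in the controls, 373 and 276 at 2 h, 609 and 409 at 4 h, 736 and 361 at 6 h, and 688 and 439 at 8 h. Groups overlapped at 2 h and not later, and in every treated group replicate 1 was the higher library, as in the controls. The log2 fold changes were 0.49 (SE 0.38), 1.13 (SE 0.38), 1.25 (SE 0.38) and 1.28 (SE 0.38), with unadjusted p of 0.23, 0.013, 0.0080 and 0.0067 and edgeR adjusted p of 1.00, 0.37, 0.17 and 0.17. Tbx4, a hindlimb factor, had 67.2 and 46.4 in the controls and 33.0 to 72.7 after IAA. Tbx6, a factor of paraxial mesoderm, had 24.8 and 19.4 in the controls and 18.3 to 40.2 after IAA.

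The Pax genes had Pax6, a factor of eye, forebrain and pancreas, as their strongest member. Pax6 (ENSMUSG00000027168.21, chr2:105668900-105697364) had 118 and 191 normalized counts in the controls, 213 and 300 at 2 h, 209 and 325 at 4 h, 224 and 267 at 6 h, and 228 and 349 at 8 h. All treated libraries were above both controls, and in each group replicate 2 was the higher. The log2 fold changes were 0.73, 0.79, 0.67 and 0.90 (SE 0.33 each), with unadjusted p of 0.049, 0.036, 0.069 and 0.020 and edgeR adjusted p of 0.26 or more. Pax8, a thyroid and kidney factor, had 36.2 and 54.0 in the controls and 54.6, 53.2, 59.5, 69.4, 70.0, 70.3, 81.0 and 80.6 in the treated libraries from 2 to 8 h. Its group means lay higher at each later time, and the log2 fold change at 8 h was 0.83 (SE 0.29, unadjusted p = 0.015, edgeR adjusted p = 0.24). Pax7, a factor of muscle stem cells and neural crest, had 11.4 and 9.3 in the controls and 3.3 and 5.2 at 2 h, a log2 fold change of -1.22 (SE 0.56, unadjusted p = 0.050, edgeR adjusted p = 1.00), and 9.9 to 15.4 later.

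Among the Nkx genes, Nkx6-2 and Nkx2-9 had higher counts than the controls in all 8 libraries with IAA, and the groups of Nkx2-2 overlapped at 4, 6 and 8 h. Nkx6-2 (ENSMUSG00000041309.17, chr7:139579376-139582797) had 118 and 102 normalized counts in the controls, 159 and 171 at 2 h, 188 and 142 at 4 h, 186 and 220 at 6 h, and 190 and 144 at 8 h. Its annotated span lies antisense to Inpp5a. The groups did not overlap, and the log2 fold changes were 0.59, 0.59, 0.88 and 0.60 (SE 0.24 each), with unadjusted p of 0.034, 0.035, 0.0043 and 0.030. Nkx2-9 had 168 and 141 in the controls and 173 to 251 after IAA, with log2 fold changes of 0.53, 0.31, 0.61 and 0.39 (SE 0.21 each).

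The Dlx, Msx and Lhx genes had mostly low counts. Dlx3, a factor of placenta, skin and bone, had 29.0 and 32.9 normalized counts in the controls, 47.9 and 43.6 at 2 h, 74.9 and 48.8 at 4 h, 68.8 and 66.5 at 6 h, and 77.0 and 63.8 at 8 h. All treated libraries were above both controls, and the log2 fold changes were 0.56, 0.99, 1.12 and 1.18 (SE 0.32 each), with unadjusted p of 0.11, 0.011, 0.0055 and 0.0038 and edgeR adjusted p of 1.00, 0.35, 0.14 and 0.15. Msx1, a target of BMP signalling in limb and tooth, had 271 and 272 in the controls and 269 to 521 after IAA, with the largest value at 6 h and overlap at 8 h. Lhx1, a factor of the head organizer and kidney, had 14.5 and 10.1 in the controls and 15.6 to 29.4 after IAA. Dlx2, which acts in forebrain interneurons, had 6.2 and 17.7 in the controls and 18.3 to 31.0 after IAA.

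**Figure D3:**
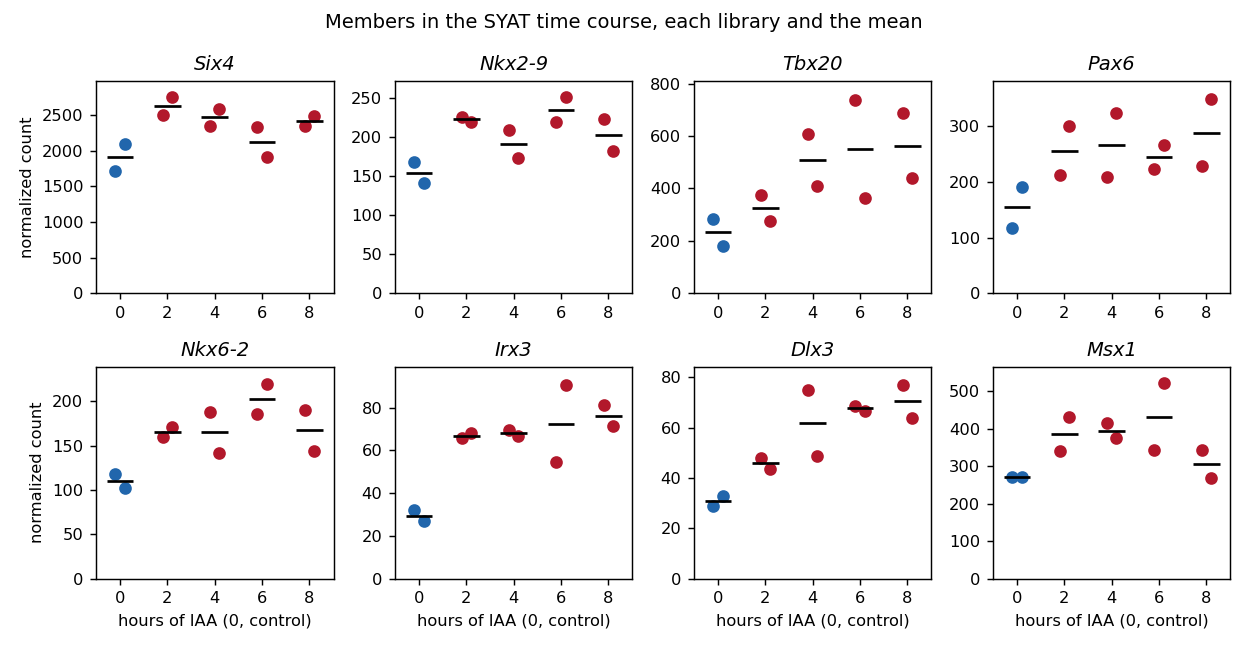
Normalized exon counts (y axis, from 0) of 8 members in each SYAT library by hours of IAA (x axis, 0 for controls), with controls in blue, treated libraries in red and the group mean as a line. In all 8 panels the treated means lie above the control mean at every time.

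Every family with tested members had more members above 0 than below at each time, except the Dlx genes at 8 h (2 of 4), and no Emx gene was tested. Above 0 were 6, 5, 5 and 6 of 6 Irx genes at 2, 4, 6 and 8 h, 6, 6, 5 and 5 of 6 sine oculis genes, 3, 5, 5 and 5 of 5 Pax genes and 7, 6, 7 and 7 of 8 T-box genes. Of 10 Nkx genes, 7, 8, 7 and 8 were above 0, of 5 Lhx genes 3, 4, 5 and 5, and of 4 Dlx genes 4, 4, 3 and 2. Both tested Msx genes and Hand1 were above 0 at all times. Over the family, 33 of 47 members were above 0 at all 4 times (29.5% of all genes), and 2 were below 0 at all 4 (27.1%), Nkx2-5 among them. Higher at an unadjusted p under 0.05 at every time were 3 members, Irx3 and Nkx6-2 among them (0.64% of all genes), and 19 members were at some time (11%). The filter limit given for the medians holds for all these counts. Of the 27 members that would pass in the controls alone, 24, 23, 23 and 23 were above 0 at 2, 4, 6 and 8 h.

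Intron counts of SYAT cells gave the same picture, with the limit on those columns given above. At an unadjusted p under 0.05, 5, 9, 9 and 11 of 32 tested members were higher at 2, 4, 6 and 8 h, where 1.84%, 3.63%, 6.53% and 5.67% of all genes were. The median log2 fold changes of the 32 were 0.58, 0.55, 0.86 and 0.81. The filter limit given for the exon medians holds for these 32 as well. Tbx20 had intron log2 fold changes of 0.70, 1.17, 1.26 and 1.35 (SE 0.39 each), close to those of its exons.

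Which members passed the thresholds depended on the tool. DESeq2, with shrunken fold changes and its own filter, had 0 of 31 members past both at 2 h (0.0509% of all genes) and 0 of 20 at 4 h (0.859%). At 6 h it had 3 of 20, among them Irx3 and Tbx20 (3.98%), with adjusted p of 0.043 and 0.020. At 8 h it had 2 of 31, Irx3 and Tbx20 (2.27%), with adjusted p of 0.037 and 0.020. Without a filter on low counts, edgeR had 2 members past both thresholds at 4, 6 and 8 h (0.245%, 2.47% and 1.25% of all genes), Tbx20 among them. Without IAA 6 h replicate 1, edgeR had 4 of 51 members past both at 6 h, among them Irx3, Nkx6-2 and Msx1, where 15.4% of all genes passed. At 8 h it had 1 without IAA 6 h replicate 1 (2.28%) and 1 without IAA 6 h replicate 2 (2.36%).

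Parental CGR8 cells, which have no degron and were given IAA for 4 h, had close sums once Six4 was left out. The summed level of the 67 members without Six4 was 91.0 and 91.4 CPM in the controls and 92.9 and 91.5 with IAA, a ratio of 1.01. Six4 alone had 61.0 and 66.8 CPM in the controls and 76.1 and 80.5 with IAA (log2 fold change 0.29, SE 0.13, unadjusted p = 0.059, edgeR adjusted p = 0.55). With Six4 the sums were 152.0 and 158.1 against 169.1 and 172.0, a ratio of 1.10 without overlap. The median log2 fold change of the 44 tested members was -0.15, where that of all genes was 0.00, and 17 of 44 were above 0. For the 32 members that would pass in the controls alone it was -0.31. None passed both thresholds by edgeR (0.00988% of all genes did), and 0 of 11 did by DESeq2 (0.962%). At an unadjusted p under 0.05, 2 members were higher (5.04% of all genes) and 2 lower (4.12%). Both treated libraries were above both controls for 7 members (21.6% of all genes) and below both for 12 (20.6%). Without CGR8 control replicate 2, 5 of 47 members passed both thresholds, 4 higher and 1 lower, where 10.9% of all genes passed. Of 38 members tested in both this table and the SYAT table, 8 lay without overlap on opposite sides of their controls at 4 h in SYAT and CGR8 cells, where 8.04% of 18368 genes did.

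In CGR8 cells Pax6 had 981 and 1115 normalized counts in the controls and 1502 and 1543 with IAA, a log2 fold change of 0.54 (SE 0.16, unadjusted p = 0.0081, edgeR adjusted p = 0.54). Pax8 had 161 and 144 against 223 and 242, a log2 fold change of 0.60 (SE 0.26, unadjusted p = 0.049, edgeR adjusted p = 0.54). For both the treated libraries were the higher, so a higher level of Pax6 and Pax8 with IAA, as of Six4, was also seen without the degron. Nkx2-9 had 429 and 339 against 283 and 223 (log2 fold change -0.60, SE 0.25, unadjusted p = 0.038, edgeR adjusted p = 0.54), and Nkx6-2 had 328 and 301 against 186 and 225 (-0.61, SE 0.24, unadjusted p = 0.035, edgeR adjusted p = 0.54). Those 2 were lower in both treated libraries. Tbx20 had 133 and 94.2 against 108 and 170, with overlap. Irx3 had 39.4 and 47.1 against 17.5 and 20.4, a log2 fold change of -1.18 (SE 0.63, unadjusted p = 0.093, edgeR adjusted p = 0.60).

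**Figure D4:**
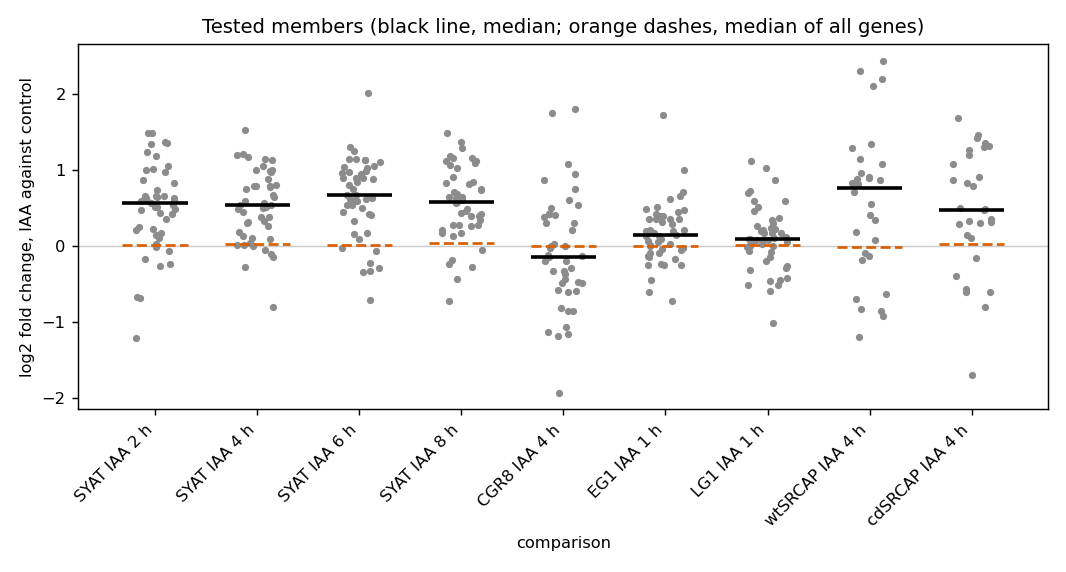
Log2 fold change with IAA against the control of the same cells (y axis) for each tested member (grey points) in 9 comparisons (x axis), with the median of the members as a black line and that of all tested genes as orange dashes. The black line lies at 0.53 to 0.67 in the SYAT time course, at -0.15 in CGR8 cells, at 0.15 and 0.08 in EG1 and LG1, and at 0.76 and 0.47 in wtSRCAP and cdSRCAP cells.

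After 1 h of IAA, in sorted G1 cells, differences were small. The 67 members without Six4 summed to 115.1 and 102.2 CPM in EG1 controls and 130.5 and 109.4 with IAA (ratio 1.10), and to 99.1 and 79.1 in LG1 controls and 100.4 and 92.0 with IAA (ratio 1.08). Treated and control libraries overlapped in both phases, and each treated library was above the control of its own number. With Six4 the sums did not overlap, at 196.7 and 191.5 against 209.3 and 207.5 in EG1 (ratio 1.07) and 183.2 and 166.6 against 183.9 and 189.7 in LG1 (ratio 1.07). The median log2 fold change of the 48 tested members was 0.15 in EG1 and 0.08 in LG1, with a median over all genes of 0.00 and 0.01, and single libraries turned the median of LG1 to -0.14 (without LG1 control replicate 2) and 0.42 (without LG1 control replicate 1). For EG1 it ran from 0.01 without EG1 IAA 1 h replicate 1 to 0.30 without EG1 control replicate 1. Irx3, Tbx20 and Six4 had log2 fold changes between 0.05 and 0.23 in either phase, with standard errors of 0.16 to 0.47.

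With the study's thresholds for sorted cells (a log2 fold change over 0.25 and an unadjusted p under 0.05), 1 member was higher in EG1 (0.19% of all genes) and none lower (1.03%). It was Emx2, a factor of the cerebral cortex, with 6.3 and 0.9 normalized counts in the controls and 10.7 and 14.4 with IAA, so that it rests on few reads. Of the fits that left out 1 library it passed only in the one without EG1 control replicate 1. Same-numbered libraries of this table deviated together, and with the replicate as a block 3 members passed in EG1 (6.04%), among them Emx2 and Nkx6-2. Nkx6-2 had 92.6 and 115 against 129 and 154 (blocked log2 fold change 0.44, unadjusted p = 0.012, edgeR adjusted p = 0.46). In LG1 no member passed in either direction (0.285% of all genes were higher and 0.733% lower), and with the block 1 did (4.2%). It was Nkx2-2, a factor of ventral neural tube and islets, with 12.3 and 10.7 against 30.9 and 15.7 (blocked log2 fold change 0.99, unadjusted p = 0.038, edgeR adjusted p = 0.72). In unblocked fits that left out a single LG1 library, a member passed in one direction or the other, so the result depended on single libraries.

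Other members with the smallest p of a direction did not pass. Dlx2 had 24.5 and 11.7 against 9.7 and 12.3 in EG1, with overlap, and 18.9 and 12.8 against 9.3 and 6.3 in LG1, without. Six6, an eye and pituitary factor, had 5.6 and 9.6 against 19.6 and 13.6 in LG1 (log2 fold change 1.11, SE 0.56, unadjusted p = 0.079, edgeR adjusted p = 1.00). Nkx6-3 in EG1 (-0.61, SE 0.65) and Tbx21, which directs T helper cells, in LG1 (-0.51, SE 0.42) had differences close to their errors. In intron counts 0 of 37 members passed in EG1 (2.28% of all genes) and 2 in LG1 (3.94%). Pax6 introns in LG1 had 30.0 and 37.0 against 54.7 and 88.0 (log2 fold change 1.08, SE 0.33, unadjusted p = 0.014, edgeR adjusted p = 1.00), and its exons had a log2 fold change of 0.33 (SE 0.20). Nkx2-6 had 3.2 and 4.1 against 14.8 and 9.3 intron counts. The response in LG1 minus that in EG1 passed for 0 of 48 members in exon counts (0.699% of all genes). Its intron counts stand only among the alternatives at the end and are not interpreted, because the EG1 and LG1 intron columns differ in content. Those columns entered the same fit, so the LG1 intron values above carry this limit too.

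Cells with an added SRCAP showed the family at higher levels with 4 h of IAA too. The 67 members without Six4 summed to 41.0 and 40.3 CPM in wtSRCAP controls and 69.6 and 61.2 with IAA (ratio 1.61), and to 56.6 and 64.3 in cdSRCAP controls and 87.9 and 86.2 with IAA (ratio 1.44). Control and treated libraries did not overlap in either clone, and cdSRCAP libraries were above wtSRCAP libraries in both media (ratios 1.49 and 1.33). The median log2 fold change of the 30 tested members was 0.76 with wtSRCAP and 0.47 with cdSRCAP, where all genes were at -0.02 and 0.02. For the 15 members that would pass in the controls alone these were 0.71 and 0.31. Without cdSRCAP control replicate 2 the cdSRCAP median was 0.71. The difference between both responses had a median of -0.01, and 0 of 30 members had an unadjusted p under 0.05 for it (0.785% of all genes). Without a cdSRCAP control library that median was -0.61 (replicate 1) or 0.22 (replicate 2), and without wtSRCAP control replicate 2 it was -0.52.

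For wtSRCAP cells, 0 of 30 members passed both thresholds by edgeR (0.00523% of all genes) and 0 of 13 by DESeq2 (0.0965%). At an unadjusted p under 0.05, 4 were higher (2.93%) and none lower (4.48%), and both treated libraries were above both controls for 10 (14.9%). The 4 became fewer without wtSRCAP control replicate 1 and more without either wtSRCAP IAA 4 h library, and the shares of all genes in those fits were not compared. For cdSRCAP cells, 0 passed by edgeR (0% of all genes) and 0 of 19 by DESeq2 (0.0426%), while 2 were higher (1.65%) and 1 lower (3.99%) at an unadjusted p under 0.05, and 15 did not overlap and were higher (18.7%). The 2 became more without either wtSRCAP IAA 4 h library or cdSRCAP control replicate 2. They became fewer without cdSRCAP control replicate 1 or either cdSRCAP IAA 4 h library. The filter limit given for the SYAT medians holds for the counts of these 30 members as well. Same-numbered libraries deviated together here as well. With the replicate as a block, 1 member passed both thresholds in wtSRCAP cells (3.2% of all genes) and 1 in cdSRCAP cells (1.81%), and in both it was Pax6.

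Pax6 had 179 and 141 normalized counts in wtSRCAP controls and 301 and 265 with IAA, and 230 and 181 in cdSRCAP controls and 423 and 322 with IAA. The groups did not overlap in either clone. The log2 fold changes were 0.82 (SE 0.28, unadjusted p = 0.015, edgeR adjusted p = 0.64) and 0.86 (SE 0.27, unadjusted p = 0.011, edgeR adjusted p = 0.75), and with the block 0.84 (edgeR adjusted p = 0.036) and 0.86 (edgeR adjusted p = 0.039). Nkx6-2 had 40.5 and 22.5 against 102 and 52.5 with wtSRCAP, and 42.9 and 50.5 against 108 and 132 with cdSRCAP. Its treated libraries were all above its controls, with log2 fold changes of 1.28 (SE 0.46, unadjusted p = 0.021) and 1.35 (SE 0.45, unadjusted p = 0.014). The differences between both responses were 0.04 (SE 0.39) for Pax6 and 0.07 (SE 0.64) for Nkx6-2.

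Tbx20 had 51.2 and 35.9 against 59.2 and 97.1 with wtSRCAP and 22.1 and 53.4 against 94.2 and 68.4 with cdSRCAP, and Six4 had 926 and 924 against 954 and 1388, and 872 and 1026 against 1235 and 1407. In both genes the treated libraries were the higher in both clones, with log2 fold changes of 0.87 and 1.07 (SE 0.50 each) for Tbx20 and 0.34 and 0.48 (SE 0.23 each) for Six4. Tbx6 had 34.5 and 24.2 against 10.8 and 18.7 with wtSRCAP (-0.93, SE 0.58), and overlapping groups with cdSRCAP.

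Between the clones, cdSRCAP cells had more RNA of several members in either medium. In controls the median log2 difference of the 30 members, cdSRCAP against wtSRCAP, was 0.71 (all genes -0.02), and with IAA it was 0.41 (all genes 0.02). A member that passed the filter only through cdSRCAP libraries had to be higher there. For the 15 members that would pass in the wtSRCAP libraries of the same medium alone, the median was 0.40 in controls and 0.40 with IAA. The leave-out values that follow are for all tested members. In controls their median was 0.28 without cdSRCAP control replicate 2 and 1.19 without wtSRCAP control replicate 2. With IAA it was 0.26 without cdSRCAP IAA 4 h replicate 2 and 0.62 without wtSRCAP IAA 4 h replicate 1. Both thresholds were passed by 0 members by edgeR in controls (0% of all genes) and with IAA (0.00523%), and by 0 of 10 and 0 of 19 by DESeq2 (0.175% and 0.0183%). At an unadjusted p under 0.05, 5 members were higher in controls (2.5%) and 4 with IAA (2.84%), and none lower (1.32% and 2.19%). The 5 became fewer without wtSRCAP control replicate 1 and more without either wtSRCAP IAA 4 h library. The 4 became fewer without cdSRCAP IAA 4 h replicate 2. Shares of all genes in those fits were not compared. Both cdSRCAP libraries were above both wtSRCAP libraries for 14 members in controls (15.7%) and 16 with IAA (19.1%). With the block, 2 members passed in controls (0.91% of all genes), Pax8 and Nkx6-3, and 1 with IAA (1.41%), Pax8.

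Pax8 had 15.5 and 28.4 in wtSRCAP controls and 66.4 and 98.2 in cdSRCAP controls, and 25.1 and 58.2 against 111 and 122 with IAA. The cdSRCAP libraries were the higher throughout, by log2 differences of 1.89 (SE 0.50, unadjusted p = 0.0041) and 1.43 (SE 0.48, unadjusted p = 0.015), and with the block by 1.91 (edgeR adjusted p = 0.015) and 1.52 (edgeR adjusted p = 0.041). Nkx6-3, a factor of stomach and gut, had 17.9 and 28.4 against 72.0 and 86.1 in controls and 34.1 and 41.7 against 84.6 and 114 with IAA. It was higher in every cdSRCAP library, by 1.76 (SE 0.41, unadjusted p = 0.0019) and 1.37 (SE 0.40, unadjusted p = 0.0070), with a blocked difference of 1.77 (edgeR adjusted p = 0.025) in controls.

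**Figure D5:**
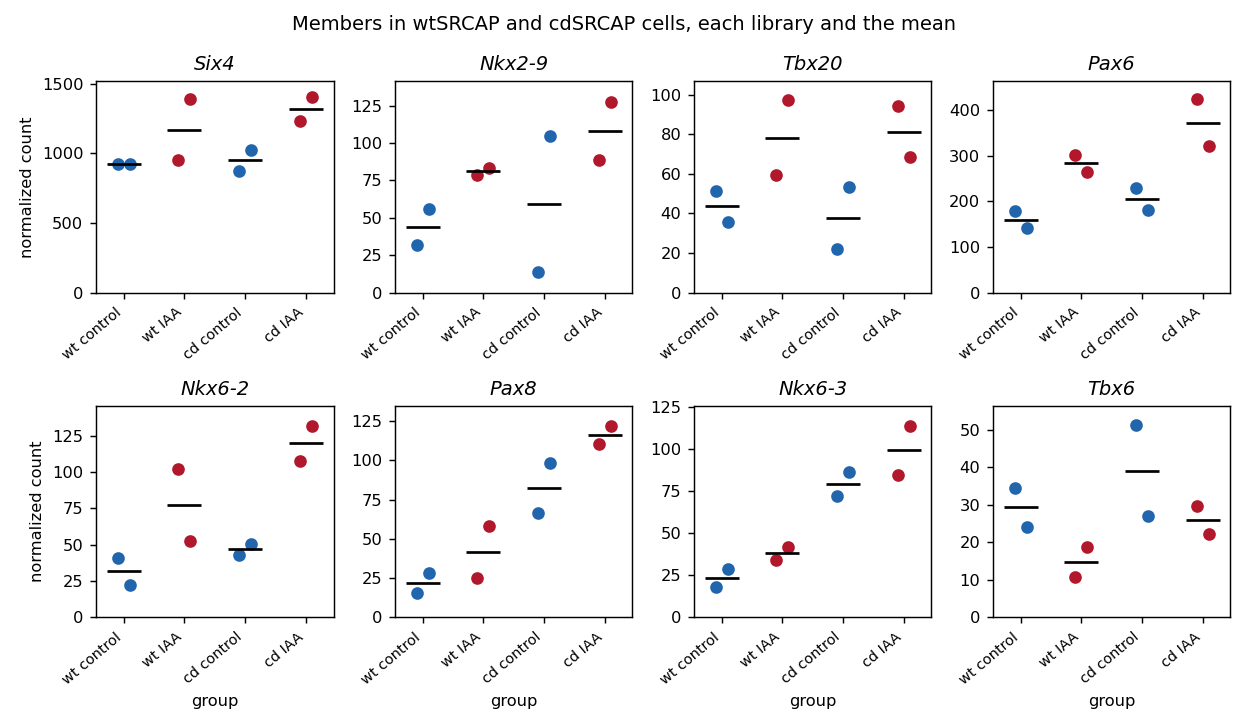
Normalized exon counts (y axis, from 0) of 8 members in each library of wtSRCAP (wt) and cdSRCAP (cd) cells (x axis), with controls in blue, libraries with IAA in red and the group mean as a line. Pax6 and Nkx6-2 lie higher with IAA in both clones, Pax8 and Nkx6-3 lie higher in cdSRCAP cells in both media, and Tbx6 lies lower with IAA in wtSRCAP cells.

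Partners and relatives of the family were listed as well. Of 29 listed genes, 25 were tested in SYAT exon counts, and none had an edgeR adjusted p under 0.05 at any time. At an unadjusted p under 0.05, 1, 3, 6 and 4 were higher and 0, 1, 1 and 0 lower at 2, 4, 6 and 8 h. Of all 19205 genes tested, 263, 593, 1523 and 985 were higher and 489, 1152, 1576 and 1621 lower. Most of the listed genes at that p were Groucho co-repressors, which several homeobox proteins recruit. Tle3 had 2235 and 2172 normalized counts in the controls and 2597 to 3613 after IAA, above the controls in every library, with log2 fold changes of 0.24, 0.43, 0.62 and 0.56 (SE 0.12 each) and edgeR adjusted p of 0.068 at 6 h and 0.097 at 8 h. Tle4 had log2 fold changes of 0.27, 0.25 and 0.28 after 4, 6 and 8 h. Tle1 had 0.77 at 6 h, where 1 library had 2158 and the other 1045 normalized counts. Tle2 had 1.27 and 1.37 after 6 and 8 h. It rests on few reads, with 7.2 and 6.8 normalized counts in the controls and 6.0 to 20.2 after IAA. Lmo4, a LIM-only protein that binds the same cofactor as LIM homeobox proteins, had 521 and 491 in the controls and 637 to 860 after IAA. Eomes, a T-box factor of endoderm and mesoderm, had 203 and 149 in the controls and 222 to 379 after IAA, with log2 fold changes of 0.84 and 0.71 after 4 and 6 h. Eya3, a co-activator of Six4 and its relatives, had log2 fold changes of -0.35 and -0.34 after 4 and 6 h.

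Markers of other cell types were followed beside the members. The 10 pluripotency markers had no adjusted p under 0.05 in the SYAT time course. They summed to 46888 to 56836 normalized counts in controls and 51201 to 79984 after IAA, so the label of embryonic stem cells held. At an unadjusted p under 0.05, 4 of them were higher at 6 h, where 1523 of 19205 genes were. Markers of primitive streak and mesoderm summed to 241 to 328 in controls and 352 to 565 after IAA. Those of trophoblast summed to 371 to 409 and 435 to 625. Most of the streak sum was Eomes (median 262 over the SYAT libraries) and most of the trophoblast sum Tfap2c (384). The neural and endoderm sums given next were mostly Neurod1 (205) and Gata4 (79.9). Neural progenitor markers summed to 269 to 291 and 130 to 290, endoderm markers to 109 to 118 and 111 to 184, fibroblast markers to 440 to 544 and 458 to 791, and markers of 2-cell-like cells to at most 17.0. Of 6 streak, 4 trophoblast, 3 endoderm and 3 fibroblast markers tested, 2, 1, 1 and 1 were higher at an unadjusted p under 0.05 at 4 h. Over all genes 593 of 19205 were. At 8 h these counts were 1, 0, 1 and 1 (985 of all genes). Of 3 neural markers tested, 1 was lower at 6 h (1576 of all genes). None of these markers had an adjusted p under 0.05. Postn was at 0 in every SYAT library, and Afp and Ttr had a median of 0. Endoderm sums were above the controls at 4, 6 and 8 h. In CGR8 cells fibroblast markers were at 660 to 706 in controls and 711 to 754 with IAA, and neural markers at 664 to 678 and 598 to 610. In wtSRCAP cells streak markers summed to 124 to 177 in controls and 226 to 292 with IAA, fibroblast markers to 94.0 to 97.7 and 222, and pluripotency markers to 56833 to 66998 and 74138 to 76933. In cdSRCAP cells streak markers summed to 190 to 201 and 311 to 368, fibroblast markers to 119 to 135 and 154 to 160, and endoderm markers to 37.4 to 64.1 and 31.3 to 33.6. Between the clones, neural markers were at 65.5 to 70.9 in wtSRCAP and 129 to 168 in cdSRCAP controls, and endoderm markers at 17.9 to 20.9 and 37.4 to 64.1. Neural, endoderm, streak and fibroblast sums were thus all higher in cdSRCAP controls without overlap, and with IAA the first 3 and pluripotency markers were higher and fibroblast markers lower. The part of other cell states in the levels of the members was not tested. Hand1 and Tbx6 stand both among the markers and among the members.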

How the data were processed

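Nuclear RNA-seq libraries of mouse embryonic stem cells were used, 2 in each group, with groups taken from the labels. Per the study's methods, the authors aligned reads with STAR to mm10, and the deposited values are counts that featureCounts gave for exons and for introns (gene body without exons) of GENCODE genes. A directional kit was used, and the strand setting of the counting is not given in the sources used here. Deposited tables of the authors' own comparisons were not used, and 0 columns were left unmapped.

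The members and lists were chosen with earlier results of these data known. Each count table was fitted on its own over all genes with edgeR 4.0.16 in R 4.3.3 (filterByExpr, TMM, quasi-likelihood test, Benjamini-Hochberg adjustment). A gene passed at a log2 fold change beyond 0.5 in size and an adjusted p under 0.05, and in EG1 and LG1, after the study's methods, at 0.25 with the p left unadjusted. DESeq2 1.42.0 with shrunken fold changes, DESeq2 size factors, no filter, a replicate block and leaving out each library were alternatives, and the fits were tested on simulated data. Genes were named if they passed in any comparison by edgeR, if they were among the 10 highest per kb in SYAT cells, or if they had one of the 2 smallest p in a direction with IAA. Other members were named for illustration after their values were seen. Some members that met this rule are not reported here by name, though they stay in all counts, sums and medians. Annotation came from GENCODE on GRCm38, which matched 55141 of 55401 gene IDs, and promoter windows from RefSeq. Per-sample depth is given with the results. Same-numbered libraries deviated together in the sorted cells (r = 0.37 to 0.59 for exon and 0.14 to 0.64 for intron counts) and in the exon counts of wtSRCAP and cdSRCAP cells (r = 0.26 to 0.38), so blocked values stand beside those results where they changed a call.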

Additional observations from a re-analysis of the deposited data

Results flagged for a closer look

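Of 38 members tested in both the SYAT and the CGR8 exon counts, 8 were given a closer look because both libraries with 4 h of IAA lay above both controls in one cell line and below both in the other, which held for 8.04% of the 18368 genes tested in both. The difference between the cell lines was not tested, since they stand in separate tables. The values are log2 fold changes. Irx3 was at 1.20 in SYAT cells and -1.18 in CGR8 cells. Lhx2 was at 0.25 and -1.14, with 13.4 and 10.1 normalized counts in SYAT controls. Lhx6 was at -0.12 and 0.86. Nkx2-9 was at 0.31 and -0.60. Nkx6-2 was at 0.59 and -0.61. Pax1 was at 0.75 and -0.30. Six2 was at 0.48 and -1.93. Tbx15 was at 0.49 and -0.49.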

How the results depend on the processing

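Counts of members past the thresholds depended on the tool, and the cause was not tested. In SYAT exon counts the main edgeR test gave 0 at each time, DESeq2 gave 3 at 6 h and 2 at 8 h, and edgeR without a filter gave 2 at 4, 6 and 8 h. With a replicate block, edgeR gave 1, 5 and 4 at 4, 6 and 8 h (76, 823 and 634 of 19205 genes of any kind) and DESeq2 gave 1, 3, 5 and 4 from 2 to 8 h (31, 330, 1074 and 693 genes). Same-numbered SYAT libraries correlated at r = -0.04 to 0.59. Between controls and 2, 4 and 8 h of IAA r was 0.33, 0.37 and 0.30, about as in wtSRCAP and cdSRCAP cells. All pairs with the 6 h group were between -0.04 and 0.06. The main SYAT fit took no pairing, so its counts and the blocked counts are to be read together. In SYAT intron counts DESeq2 gave 2 and 1 at 6 and 8 h (471 and 410 genes), no filter 1 and 1 (77 and 71 genes), and DESeq2 with the block 2, 4 and 3 at 4, 6 and 8 h (336, 723 and 613 genes). In CGR8 cells the block gave 1 (500 genes, r = 0.07 between same-numbered libraries). In EG1 the block gave 3 and in LG1 it gave 1, with the shares of all genes given above. In EG1 no member passed by DESeq2, with or without the block. For LG1 minus EG1, members passed without a filter and by DESeq2 with the block. In intron counts members passed without a filter in EG1, for LG1 minus EG1 and for cdSRCAP against wtSRCAP in IAA, and by DESeq2 in LG1. Shares of all genes are not given for these settings, so they are not read as results about the members. With the block, edgeR gave 1 for wtSRCAP with IAA and 1 for cdSRCAP with IAA. It gave 2 for cdSRCAP against wtSRCAP in control and 1 in IAA, with the shares of all genes given above. DESeq2 with the block gave the same counts, and its shares are not given.

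Shrinkage in DESeq2 pulls low counts toward 0, and medians over members were 0.11, 0.09, 0.12 and 0.10 in SYAT cells from 2 to 8 h, 0.08 for wtSRCAP and 0.07 for cdSRCAP with IAA, and 0.09 and 0.05 for cdSRCAP against wtSRCAP in control and in IAA. With the block they were 0.09, 0.09, 0.10, 0.08, 0.05, 0.05, 0.05 and 0.04 in the same order. Without a filter the SYAT median at 8 h was 0.43. Leaving out 1 library moved the medians to 0.23 to 0.53, 0.38 to 0.57 and 0.38 to 0.73 in SYAT cells at 2, 4 and 8 h, -0.33 to -0.18 in CGR8 cells, 0.28 to 1.19 for cdSRCAP against wtSRCAP in control and -0.61 to 0.22 for the difference between their responses. It also changed the counts of members past the thresholds in SYAT cells at 6 and 8 h, in CGR8 cells, in EG1, in LG1 and in their difference. It turned the sign of Irx2 in SYAT cells at 4 h (-0.42 to 0.07) and of Nkx6-3 in EG1 (-1.04 to 0.06). With 1 library left in a group, that library is assumed to vary like the others. The median biological coefficient of variation, 0.20 in SYAT and 0.29 in wtSRCAP and cdSRCAP exon counts, and the low counts of most members limit what 2 libraries a group can show.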
